A study of Mus musculus with 11 samples.

Results

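The genes described here encode the proteins of the cytosolic ribosome. They were taken by name: every gene whose symbol starts with Rpl or Rps followed by a digit, with Rplp0, Rplp1, Rplp2 and Rpsa, without pseudogenes marked -ps and without the Rps6k kinases. A gene also had to be listed above 0 in all libraries of both expression tables. Of 37375 genes in all, 91 names fit and 84 met the condition on values. The 84 comprise 29 proteins of the small (40S) subunit, 44 of the large (60S) subunit, 9 paralogs of such genes, and 2 other names. These 2 are Rps19bp1, which encodes a protein that binds RPS19 and is not part of the ribosome, and the retrogene Rpl37rt. Rpl24, Rps27, Rps13, Rpl41 and Rpl6l were left out for values below 0, which mark genes with no length in the deposited table, and Rpl39l and Rpl10l because at least 1 library lists them at 0.

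Each ribosome holds a single copy of nearly every one of these proteins, so their messenger RNAs are among the most abundant in most cells and tend to be produced together. Many of the messenger RNAs begin with a cytosine and a run of pyrimidines, the 5′ terminal oligopyrimidine tract, through which mTOR complex 1 controls how strongly they are translated. Sin1, encoded by Mapkap1, is a subunit of the other mTOR complex, mTORC2. A few genes have a second, diverged copy with its own pattern across tissues, such as Rps27l beside Rps27, and Rps27l is a known target of p53.

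RNA was sequenced from sorted macrophages of C57BL/6 mice aged 6 to 8 weeks, all bearing a subcutaneous tumor of LLC cells, a mouse Lewis lung carcinoma line, for 14 days. WT_TAM is 4 libraries of tumor-associated macrophages from Sin1fl/fl mice with no Cre. KO_TAM is 4 libraries of the same cells from LysMCre;Sin1fl/fl mice, in which Cre is driven from the Lyz2 locus, active in macrophages but also in neutrophils and other myeloid cells. WT_SP is 3 libraries of splenic macrophages from tumor-bearing Sin1fl/fl mice. Both floxed alleles are therefore shared by all 3 groups. The study asked how loss of Sin1 affects these macrophages and how tumor and spleen macrophages differ. WT_TAM is the same 4 libraries in both comparisons, which are therefore not independent. Tumor cells were sorted as CD11b+ F4/80+ and spleen cells as CD11blo F4/80+, so the gates differ between the sites.

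The Rps27 family holds both members that passed the test between sites with all libraries, so its coding sequences are shown first. Rps27 (ENSMUSG00000090733) has 4 exons at chr3:90212522-90213651 on the minus strand of GRCm38, the mm10 build. Rps27rt (ENSMUSG00000050621) has 1 exon at chr9:114982366-114982739, minus strand, and Rps27l (ENSMUSG00000036781) has 4 exons at chr9:66946086-66949516, plus strand. Each sequence runs from start to stop codon, and capitals in Rps27l mark bases that differ from Rps27 at the same position.
Rps27: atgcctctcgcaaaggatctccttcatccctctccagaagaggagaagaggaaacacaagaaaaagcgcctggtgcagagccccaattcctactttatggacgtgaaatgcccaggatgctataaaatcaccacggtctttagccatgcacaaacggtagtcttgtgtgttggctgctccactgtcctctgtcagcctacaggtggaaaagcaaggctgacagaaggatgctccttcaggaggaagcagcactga
Rps27rt: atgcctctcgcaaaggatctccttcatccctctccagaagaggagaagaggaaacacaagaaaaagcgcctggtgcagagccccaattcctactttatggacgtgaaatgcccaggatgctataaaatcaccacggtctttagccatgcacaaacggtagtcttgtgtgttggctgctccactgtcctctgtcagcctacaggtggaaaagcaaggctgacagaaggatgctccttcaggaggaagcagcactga
Rps27l: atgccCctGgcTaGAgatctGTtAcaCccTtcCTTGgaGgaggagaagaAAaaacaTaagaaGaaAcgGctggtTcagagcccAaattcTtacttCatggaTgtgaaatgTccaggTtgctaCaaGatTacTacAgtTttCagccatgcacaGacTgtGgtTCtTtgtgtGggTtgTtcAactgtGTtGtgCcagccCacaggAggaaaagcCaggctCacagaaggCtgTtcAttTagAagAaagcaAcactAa
All 255 coding bases of Rps27rt are the same as in Rps27, so reads within the coding region cannot be assigned to one or the other by sequence, and the values of Rps27rt are uncertain for that reason. Rps27l shares 194 of its 255 bases with Rps27 (76.1%), and its longest stretch of identical bases is 11, so its reads can be told apart.

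The annotated transcription starts were searched for the pyrimidine run through which mTOR acts. A run was a C followed by at least 5 bases that are C or T, on the gene's strand, beginning within 10 bases of the RefSeq start (GRCm38.p6 promoter table). Among the small and large subunit genes, 53 of 73 had an entry, and 28 of these (52.8%) held a run, against 20.4% of all 27025 genes and 21.7% of mitochondrial ribosomal protein genes. On the opposite strand, the share was 9.43% among subunit genes, 23.9% among all genes and 20.3% among mitochondrial ribosomal protein genes. The next 30-base windows show 5 genes with a run, in capitals, and 2 highly expressed genes without one, to let the letters be compared.
Rps18 (chr17:33955646-33955675, minus strand): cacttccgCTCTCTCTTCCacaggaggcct
Rps9 (chr7:3704031-3704060, plus strand): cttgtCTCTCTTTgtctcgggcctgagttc
Rplp2 (chr7:141447641-141447670, plus strand): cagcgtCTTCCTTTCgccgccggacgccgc
Rps23 (chr13:90923112-90923141, plus strand): cggctgggcggggCTTCCCgcaatgccttg
Rps2 (chr17:24720053-24720082, plus strand): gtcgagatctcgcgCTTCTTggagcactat
Rpl37a (chr1:72711250-72711279, plus strand): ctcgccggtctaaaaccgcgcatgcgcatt
Rpl13 (chr8:123102340-123102369, plus strand): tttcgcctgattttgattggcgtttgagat
Rps18 has a run of 11 bases and Rps23 and Rps2 runs of 6 bases, while Rpl37a and Rpl13 have none in this window of their RefSeq start. Only RefSeq starts were searched. In the GENCODE annotation Rpl37a begins at chr1:72711290, downstream of the window shown, and that start was not searched. The 5 genes shown with a run begin upstream of their windows in GENCODE. These starts are chr17:33956001 for Rps18, chr7:3703993 for Rps9, chr7:141447370 for Rplp2, chr13:90922958 for Rps23 and chr17:24718116 for Rps2. They were not searched either, so the runs shown lie at RefSeq starts only. The letters CCGGAA, the core bound by ETS factors, were searched on both strands of the 300-base promoters and were present in 56.6% of the subunit genes, against 16.7% of all genes and 58.0% of mitochondrial ribosomal protein genes. A run and CCGGAA overlapped in 1 promoter of the 61 genes with an entry.

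Library totals ranged from 7639550 to 13118534 reads, and the lowest was WT_TAM replicate 4. Levels are given as CPM, recovered reads scaled to 1e6 per library after the authors' own scaling between libraries. In WT_TAM replicate 4, short genes other than ribosomal ones were also high: genes of up to 600 bases stood at a median of 2.27 times the other WT_TAM libraries (380 genes), and genes of 2400 to 4800 bases at 0.732 (4462 genes). In KO_TAM replicate 2 the same medians were 0.839 and 1.05 times the other KO_TAM libraries. The ribosomal protein genes are short, with a median of 608 bases against 2333.5 for all tested genes, so both libraries bear on every value below and results are given with and without them. Macrophage markers were present in all libraries, at a summed 40333 to 66162 CPM in WT_TAM, 20502 to 32197 in KO_TAM and, in the site table, 7582 to 8036 in WT_SP. Markers of red pulp macrophages, a type of the spleen, went the other way. In the site table they summed to 864 to 1361 CPM in WT_TAM and 4643 to 5261 in WT_SP. The WT_SP libraries also held 16869 to 19043 CPM of B and plasma cell markers, against 35.2 to 215 in WT_TAM. In the genotype table, neutrophil markers summed to 113 to 206 CPM in WT_TAM and 278 to 954 in KO_TAM, fibroblast markers to 400 to 877 and 33.2 to 244, and mitochondrial genome transcripts to 9757 to 61259 and 3856 to 16000. Erythroid markers summed to 152 to 729 CPM in WT_TAM and 26.4 to 263 in KO_TAM, and B and plasma cell markers to 33.3 to 186 and 66.3 to 240. The macrophage list includes Lyz2, the locus that carries Cre in KO_TAM. The part of this gene in the macrophage sums was not tested. Over 14 tested macrophage markers, the median log2 difference of KO_TAM from WT_TAM was -0.09 with all libraries. In the site table, T and NK cell markers summed to 146 to 261 CPM in WT_TAM and 1825 to 1981 in WT_SP, and neutrophil markers to 119 to 238 and 1102 to 3009. All markers of these lists had reads in every group except Elane, at 0 in WT_TAM. The labels do not say that the libraries are separate mice. P-values therefore describe library-to-library spread, which may be technical.

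The ribosomal protein genes took up 1.97 to 5.50% of the library total in WT_TAM, 0.970 to 1.86% in KO_TAM and 4.33 to 4.94% in WT_SP. Their summed level was 19329, 20626, 20573 and 65064 CPM in WT_TAM and 15542, 9885, 17748 and 17319 CPM in KO_TAM, in replicate order. WT_TAM replicate 4 stood far above the other WT_TAM libraries, KO_TAM replicate 2 was the lowest of all, and no KO_TAM library reached the lowest WT_TAM library. The small subunit spanned 7889 to 26417 CPM in WT_TAM and 3940 to 7287 in KO_TAM, and the large subunit 11076 to 37935 and 5677 to 10113. In the spleen, scaled within the other table, the sum was 36081, 40526 and 36502 CPM, beside 22271, 23817, 23301 and 68826 CPM in WT_TAM. The 3 spleen libraries lay above WT_TAM replicates 1 to 3 and below replicate 4.

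**Figure D1:**
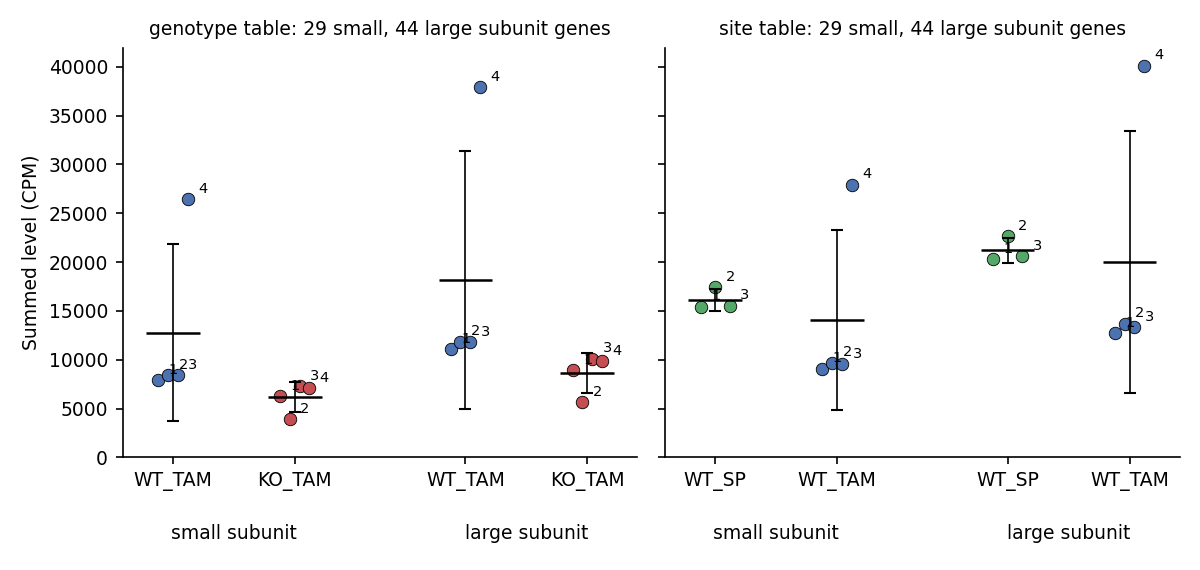
Summed level of the 29 small and the 44 large subunit genes in each library, in CPM on a linear axis, for the genotype table (left) and the site table (right). Points are libraries with their replicate number, and lines are group means with the SD; WT_TAM replicate 4 is far above every other tumor library in both subunits.

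Single genes differed greatly in abundance. Per kilobase of gene length, the subunit genes ranged in the genotype table from 12.2 CPM for Rpl23a upward, with a median of 401. Among the highest were Rpl13 (1317), Rpl37a (1071), Rps18 (1037), Rps14 (944) and Rps29 (940), all structural proteins of the ribosome. In the site table, Rpl37a, Rpl13, Rps18, Rps29 and Rps19 were among the highest. How much replicate 4 of WT_TAM exceeded the mean of the other 3 also differed between genes, from 1.51 times for Rpl4 to 5.90 times for Rps15, both picked here after their values were seen. The median over the 73 subunit genes was 3.68 times, and KO_TAM replicate 2 stood at a median of 0.572 times its group. Among the 82 tested members, paralogs included, the median excess of WT_TAM replicate 4 fell with gene length. It was 3.82 times for 41 genes of up to 600 bases, 3.33 for 37 of 600 to 1200 bases and 1.76 for 4 of 1200 to 2400 bases. For other genes in the same ranges the medians were 2.27, 1.49 and 0.951 times.

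**Figure D2:**
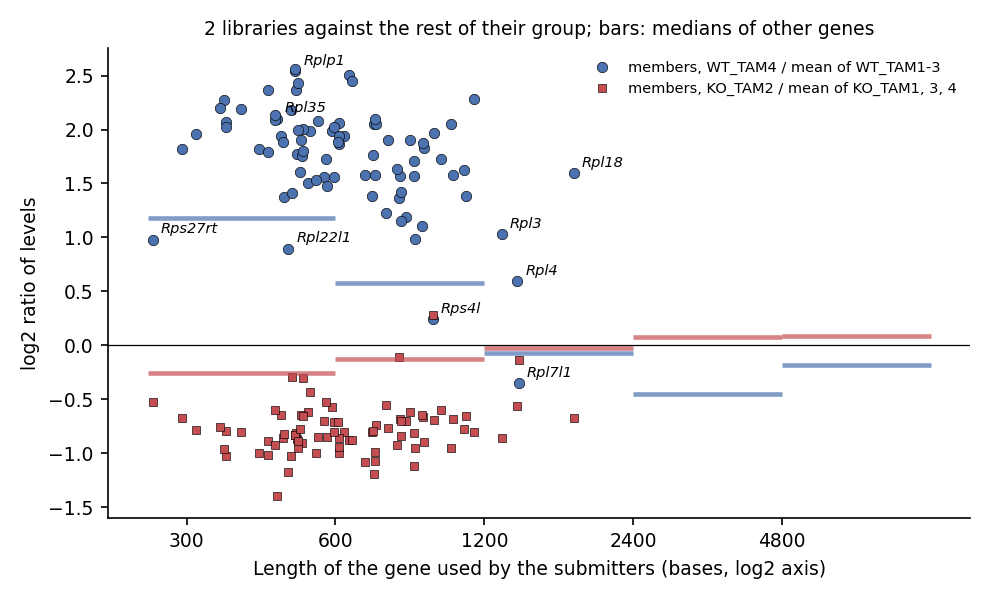
Log2 ratio of WT_TAM replicate 4 (circles) and of KO_TAM replicate 2 (squares) to the mean of the other libraries of their group, for each ribosomal protein gene by gene length in bases on a log axis; bars are medians of other genes in length ranges. Most members lie above the bar of their length in WT_TAM replicate 4 and below it in KO_TAM replicate 2, with Rpl7l1, Rps27rt, Rpl22l1 and Rps4l among the exceptions in the former.

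The knockout comparison asked whether these genes change when Sin1 is deleted. Mapkap1 itself was 71.1, 66.4, 59.7 and 30.7 CPM in WT_TAM and 43.98, 54.1, 43.3 and 45.9 CPM in KO_TAM, and limma found a log2 difference of -0.22 (adjusted p = 0.658). Without the libraries that stand apart, it was 65.7 ± 5.74 (SD, n = 3) against 44.4 ± 1.38 (n = 3), a log2 difference of -0.56 (limma adjusted p = 0.0613). The sources used here do not name the deleted exon, so reads outside it could remain.

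All 82 tested ribosomal protein genes had a lower mean in KO_TAM, against 49.5 percent of all tested genes, and none passed the test. The median log2 difference was -0.87, a range of -1.36 to -0.13, against 0.01 for all tested genes. It was -0.88 for the small subunit, -0.88 for the large subunit and -0.46 for the paralogs. Of the 82, 0 were higher and 0 lower at a limma adjusted p under 0.05, and the background over all 12872 tested genes was 0 percent and 0 percent. At an unadjusted p under 0.05, 31 were lower and 0 higher (background 9.7 and 8.67 percent), of which 14 belonged to the small and 17 to the large subunit. In 42 the libraries of the groups did not overlap, all lower in KO_TAM (background 8.72 percent lower and 6.39 percent higher). Beside these counts, 0 macrophage, fibroblast, erythroid, neutrophil, B and plasma cell or mitochondrial genome transcripts were called. Their median log2 differences were -0.09 over 14 tested macrophage markers, -1.85 over 9 fibroblast, -2.28 over 5 erythroid, 1.43 over 4 neutrophil and 0.54 over 9 B and plasma cell markers, and -2.005 over 11 mitochondrial transcripts. Their part in the result was not tested.

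Leaving out WT_TAM replicate 4 and KO_TAM replicate 2 kept most signs and shrank the sizes. Then 78 of 82 genes had a lower mean in KO_TAM (background 51.9 percent), with a median log2 difference of -0.23 and a range of -0.49 to 0.22, against -0.01 for all genes. None passed the limma test, where 0.162 percent of all 13000 genes were higher and 0.338 percent lower, and at an unadjusted p under 0.05, 32 were lower and 0 higher (background 9.51 and 8.02 percent). In 42 the libraries did not overlap, all lower in KO_TAM (background 13.3 percent lower and 9.81 percent higher). The summed level was then 16869 ± 1170 CPM in KO_TAM against 20176 ± 734 in WT_TAM (SD, n = 3 each), a ratio of 0.836 in place of 0.482 with all libraries. The ratio was 0.836 for the small subunit, 0.833 for the large subunit and 0.933 for the paralogs. Of the cell markers, 2 of 14 macrophage, 1 of 9 red pulp macrophage and 1 of 9 fibroblast markers were then called lower by limma. No erythroid, neutrophil, B and plasma cell or mitochondrial genome transcript was called, and no marker of these lists was called higher. Their part in the result was not tested.

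**Figure D3:**
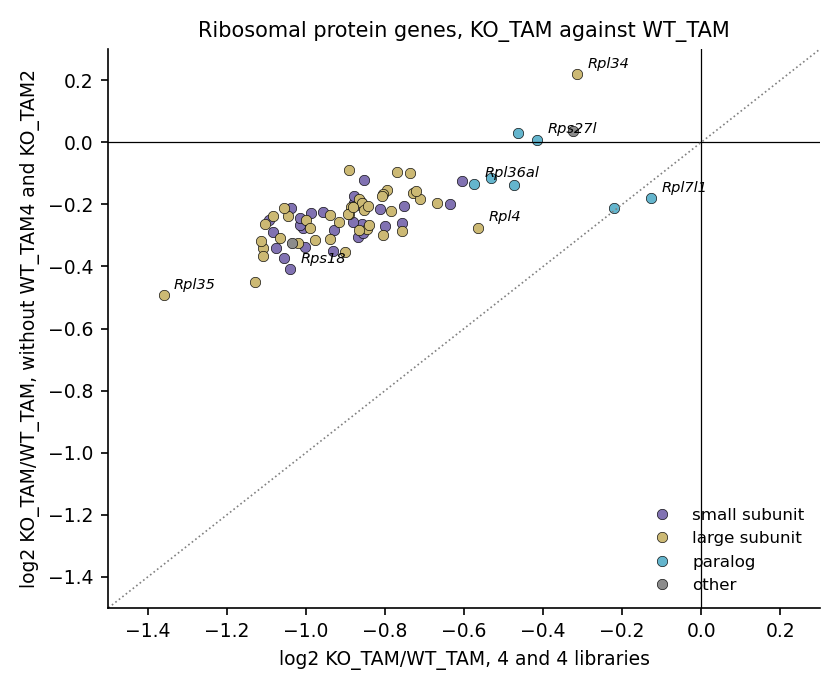
Log2 difference of KO_TAM from WT_TAM for each tested ribosomal protein gene, coloured by role, with all libraries (x axis) against that without WT_TAM replicate 4 and KO_TAM replicate 2 (y axis); the dotted line marks equal values. All points lie below 0 on the x axis, between -1.36 and -0.13, and nearly all lie above the dotted line, closer to 0 on the y axis.

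Rps18, of the small subunit, was 528, 541, 526 and 1540 CPM in WT_TAM and 377, 201, 408 and 416 CPM in KO_TAM. The highest KO_TAM library was below the lowest WT_TAM library. Its log2 difference was -1.04 ± 0.38 (limma adjusted p = 0.207), or -0.41 ± 0.10 without the pair of WT_TAM replicate 4 and KO_TAM replicate 2 (adjusted p = 0.0778). WT_TAM was then 532 ± 7.81 CPM and KO_TAM 400.5 ± 20.3 (n = 3 each).

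Rpl35, a large subunit protein near the exit of the peptide tunnel, had the largest difference. It was 59.1, 40.5, 39.1 and 198 CPM in WT_TAM and 29.7, 12.2, 31.7 and 35.3 CPM in KO_TAM, so the groups did not overlap. The log2 difference of -1.36 ± 0.51 had a limma adjusted p of 0.221 and was -0.49 ± 0.17 without the pair (adjusted p = 0.185). The large subunit genes Rpl36a, Rpl36 and Rpl13a were each near -1.11. Without the pair they were -0.32, -0.37 and -0.34, with limma adjusted p of 0.199, 0.130 and 0.178.

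The paralogs had the smallest median difference of the 3 roles. Rpl7l1, a relative of Rpl7, was 94.5, 105, 86.6 and 74.9 CPM in WT_TAM and 92.4, 76.7, 75.8 and 84.4 CPM in KO_TAM, with a log2 difference of -0.13 (limma adjusted p = 0.697). It is the only tested member where WT_TAM replicate 4 was the lowest of its group. Rps27l was 101, 101, 97.3 and 266 CPM in WT_TAM and 95.1, 82.0, 103 and 104 CPM in KO_TAM, a log2 difference of -0.42 (limma adjusted p = 0.468), or 0.01 without the pair (0.975). Rpl34 (0.22) was the highest member without the pair, named here after its value was seen.

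The site comparison asked how tumor and spleen macrophages differ. With all libraries, 1 of 83 tested members was higher in WT_TAM (Rps27l) and 1 lower (Rps27rt) at a limma adjusted p under 0.05, against 23.1 percent and 23.6 percent of all 14236 genes. The median log2 difference was -0.27 (-0.07 for all genes), with 66 means below 0 (background 52.8 percent). Groups did not overlap in 3 members higher and 1 lower in WT_TAM (background 26.3 and 29.8 percent). The ratio of the summed levels was 0.916, from 34554 ± 22858 CPM in WT_TAM (n = 4) and 37703 ± 2454 in WT_SP (n = 3).

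Without WT_TAM replicate 4, 72 of 82 members were called lower in WT_TAM and 3 higher (Rps27l, Rpl7l1 and Rps19bp1) at a limma adjusted p under 0.05. The background over 13892 genes was 33.5 percent lower and 32.2 percent higher. The library left out is the tumor library in which these same genes summed highest. The counts and p-values given without it are therefore conditional on that choice of libraries. The mean was lower in 76 members (background 52.6 percent). Called lower were 29 of 29 small subunit genes, 40 of 44 large subunit genes and 3 of 7 paralogs. The median log2 difference was -0.71 (-0.06 for all genes): -0.76 in the small subunit, -0.61 in the large subunit and 0.20 in the paralogs. The summed level was then 23129 ± 787 CPM in WT_TAM, 0.613 of that in WT_SP. The groups did not overlap in 70 members lower and 4 higher in WT_TAM (background 36.4 and 34.3 percent). The B, plasma, T, NK and neutrophil markers given above moved with these differences, and the sort gate differed between sites. Their part in the result was not tested. In bulk RNA, fewer cells of a type and less RNA per cell cannot be told apart.

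**Figure D4:**
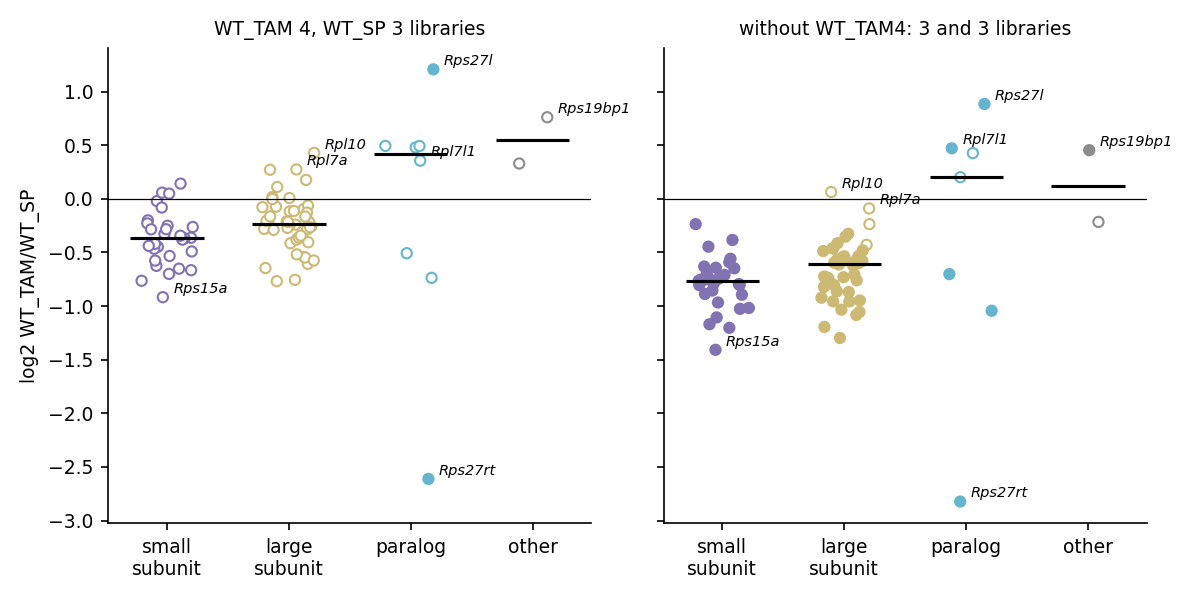
Log2 difference of WT_TAM from WT_SP for each tested member, with all 4 WT_TAM libraries and without WT_TAM replicate 4; filled points passed the limma test and lines are medians. Without that library, most points of both subunits fall below 0, and Rps27rt is lowest in both.

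Among the 73 subunit genes that are members, Rps15a had the largest difference. It was 114, 115, 136 and 474 CPM in WT_TAM and 304, 368 and 300 CPM in WT_SP. Only WT_TAM replicate 4 was above the spleen. Without it the log2 difference was -1.41 ± 0.11 (limma adjusted p = 1.16e-06); with it, -0.92 (adjusted p = 0.144).

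Rpl37a was 452, 426, 426 and 1416 CPM in WT_TAM and 883, 1213 and 918 CPM in WT_SP, so again only WT_TAM replicate 4 was above the spleen. Without that library, Rpl37a, Rpl13a and Rps19 differed by -1.19, -1.30 and -1.11, with limma adjusted p of 6.85e-06, 1.09e-06 and 2.65e-06. Rpl13, also abundant, differed by only -0.41 (adjusted p = 0.00354). The large subunit genes that did not pass were Rpl10 (0.06, adjusted p = 0.567), Rpl7a (-0.09, 0.348), Rpl29 (-0.24, 0.065) and Rpl34 (-0.43, 0.271).

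The Rps27 family parted in opposite directions. Rps27rt was 7.68, 11.2, 9.53 and 17.2 CPM in WT_TAM and 61.2, 74.3 and 73.0 CPM in WT_SP. Every WT_TAM library was below every WT_SP library. The log2 difference was -2.61 ± 0.27 (limma adjusted p = 8.46e-05; 1.97e-09 to 0.00103 over the alternatives), with means of 11.4 ± 4.13 and 69.5 ± 7.23 CPM.

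Rps27, left out of the members for its missing length but with the same coding bases, was 213, 221, 189 and 580 CPM in WT_TAM and 824, 1344 and 908 CPM in WT_SP. All 4 WT_TAM libraries were lower. The log2 difference was -1.90 ± 0.39 (limma adjusted p = 0.00413), and without WT_TAM replicate 4 it was -2.27 (adjusted p = 2.8e-06).

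Rps27l was 116, 117, 110 and 281 CPM in WT_TAM and 63.6, 66.4 and 55.9 CPM in WT_SP, so all WT_TAM libraries were higher. The log2 difference was 1.21 ± 0.33 (limma adjusted p = 0.0156), from 156 ± 83.3 and 62.0 ± 5.46 CPM, and 0.88 ± 0.10 (adjusted p = 1.73e-05) without WT_TAM replicate 4. The call was lost without WT_SP replicate 1 (limma adjusted p = 0.0504) or replicate 3 (0.0640), with scaling by library total alone (0.0674) and by reads outside the members and the mitochondrial genome (0.0712). Reads of Rps27l amounted to 48.4 to 58.5% of those of Rps27 in WT_TAM, 61.7 to 86.9% in KO_TAM and 4.94 to 7.72% in WT_SP.

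**Figure D5:**
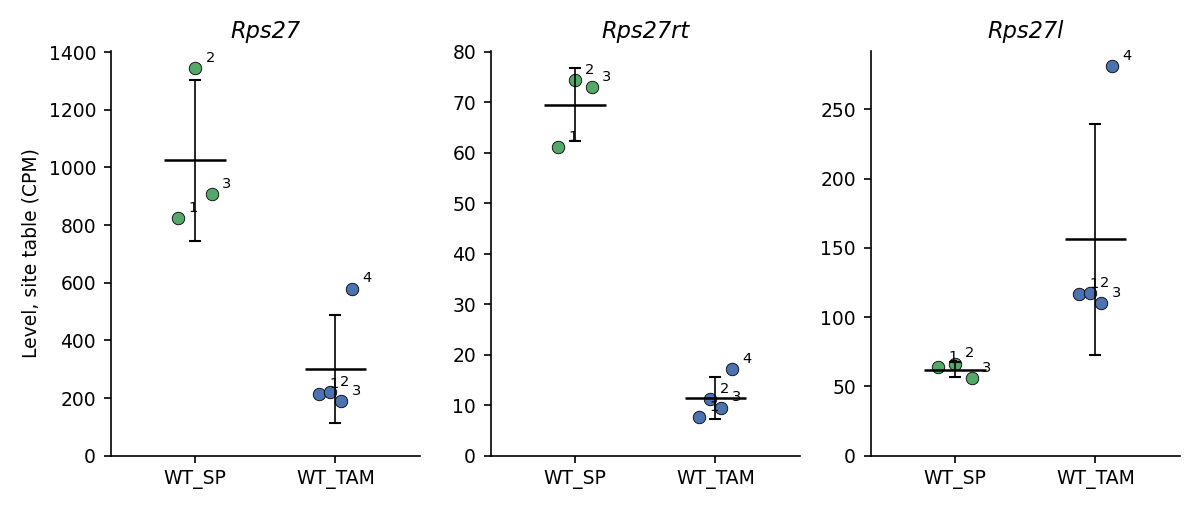
Level of Rps27, Rps27l and Rps27rt in each library of the site table, in CPM on linear axes that start at 0, with the replicate number beside each point and the group mean with its SD. Rps27 and Rps27rt lie higher in WT_SP, and Rps27l lies higher in WT_TAM, in all libraries.

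Rpl7l1 was 109, 121, 98.1 and 79.2 CPM in WT_TAM and 80.7, 80.9 and 74.3 CPM in WT_SP. It passed without WT_TAM replicate 4 (0.47, limma adjusted p = 0.00212) and did not in the fit of all libraries with equal weight (0.36, 0.151), where scaling by library total alone gave -0.12. Rpl36al, a relative of Rpl36a with 87.9% identical coding bases, was 60.4 to 120% of Rpl36a per length in WT_TAM, 128 to 185% in KO_TAM and 51.4 to 67.5% in WT_SP, and did not pass with WT_TAM replicate 4 (0.48, 0.208) or without it (0.20, 0.0624). Rps19bp1 was 21.1, 18.4, 17.3 and 44.9 CPM in WT_TAM and 12.3, 15.2 and 13.6 CPM in WT_SP, with a difference of 0.76 in all libraries (limma adjusted p = 0.0896) and 0.45 without WT_TAM replicate 4 (0.0254). Rpl22l1 differed by -0.51 on the log2 scale in all libraries (limma adjusted p = 0.227) and by -0.70 without that library (0.0311). Rps3a3, at 1.18, 0.980, 0.612 and 2.79 CPM in WT_TAM and 1.62, 4.25 and 1.91 CPM in WT_SP, differed by -0.74 in all libraries (limma adjusted p = 0.199) and by -1.04 without WT_TAM replicate 4 (0.0227), at levels of a few CPM. Rpl3l, Rpl37rt, Rps3a2, Rps3a3 and Rps4l were low in the tumor libraries: Rpl37rt reached 11.5 CPM in WT_TAM and Rps3a2 and Rps3a3 at most 2.7 CPM in the genotype table.

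The choice of scaling matters for sites, since dividing by the library total alone shifts the median of all genes to -0.52. Without WT_TAM replicate 4, by the library total alone, 79 of the 84 members (94%) were below 0, with a median of -1.15, against 67.4% of all 13892 tested genes, with a median of -0.50. The 5 above 0 were Rps27l (0.45), Rps4l (0.10), Rpl3l (0.04), Rpl7l1 (0.04) and Rps19bp1 (0.03).

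Ribosomal proteins outside the name rule and other translation genes were compared from a fixed list. In the genotype comparison, none of Fau, Gnb2l1, Eef1a1, Eef2, Tpt1, Pabpc1, Npm1, Ncl, Fbl, Myc and Larp1 passed the limma test. Between sites without WT_TAM replicate 4, Eef2, an elongation factor, differed by -0.66 (limma adjusted p = 3.44e-05), Eef1a1 by -0.48 (0.00144), Fau by -0.41 (0.00213) and Gnb2l1 by -0.44 (0.00106). Myc differed by -0.86 (0.000408), Pabpc1 by -0.52 (0.0127) and Npm1 by -0.25 (0.0466). Tpt1 (0.01, adjusted p = 0.945), Ncl, Fbl and Larp1 did not pass. With all libraries, only Myc passed among these genes (-0.92, limma adjusted p = 0.00447). Eef2 was then at -0.37 (0.351), Eef1a1 at -0.37 (0.143), Fau at 0.13 (0.853) and Gnb2l1 at 0.01 (0.984). Of the translation factors, the limma test called 13 of 41 higher and 12 lower without WT_TAM replicate 4, with a median of -0.08. Of the ribosome assembly factors, 5 of 44 were higher and 17 lower (median -0.17), and of the RNA polymerase I genes 1 of 13 and 8 (median -0.46). Of the mitochondrial ribosomal protein genes, which work in another organelle, 17 of 76 were higher and 5 lower (median 0.06), beside a background of 32.2 and 33.5 percent. With all libraries (background 23.1 and 23.6 percent), the counts were 7 higher and 1 lower for translation factors (median 0.11), 0 and 6 for ribosome assembly factors (-0.30), 0 and 6 for RNA polymerase I genes (-0.55) and 9 and 1 for mitochondrial ribosomal proteins (0.19). In the genotype comparison, 0 genes of any of these lists passed, with medians of -0.35 for translation factors, -0.16 for ribosome assembly factors, -0.09 for RNA polymerase I genes and -0.38 for mitochondrial ribosomal proteins. Without WT_TAM replicate 4 and KO_TAM replicate 2, again 0 passed, and the medians were -0.13, -0.12, -0.03 and -0.13.

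The genes outside the name rule whose pattern was most like the members' mean, by Pearson correlation of centred log2 values over the 8 libraries of the genotype table, were Asl (0.998), Gm15427 (0.997), Lgals1 (0.997), Hspe1 (0.996) and Hint1 (0.995). Over the 7 libraries of the site table they were Gm24187, Lyrm2, Supt3, Tmsb10 and Serbp1, from 0.987 to 0.996. All of these share the libraries and their depth with the members, including WT_TAM replicate 4, and the values are a description with no p.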

How the data were processed

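RNA was sequenced in 11 libraries. Reads were handled on mm10 with HTSeq, DESeq2, SAMtools, TopHat2, HISAT and HISAT2, per the submitters' processing notes; roles, versions and annotation are not given there. The authors deposited 2 tables whose values are treated as a score: from the values, each equals reads divided by gene length, library total and size factor, times a recycled factor. Reads were recovered as whole numbers for 99.947% of non-zero values in the genotype table and 100% in the site table, and the exceptions lie in 35 genes, none of them a member. Their WT_TAM reads were taken from the site table, their KO_TAM reads were restored where possible, and 3 genes were left out.

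CPM is reads times 1e6, divided by library total times the authors' factor. Differences were tested with limma 3.58.1 in R 4.3.3 on log2(CPM + 0.5), with a mean trend, robust shrinkage and Benjamini-Hochberg adjustment over all tested genes. The 0.5 understates differences of low genes. A gene was tested with at least 10 reads at the median library in as many libraries as the smaller group has, and 15 reads in all. The deposited unit is not counts, so no count model was used. The test was checked on simulated data in which each gene varied independently. That check does not cover a shift shared by many genes of a library, as in WT_TAM replicate 4. Members and lists were chosen with earlier results of these data known, so no list is independent evidence. Named genes are the 6 highest per kilobase, the 5 largest differences each way, the paralogs with their parents and the names outside the subunit lists. A few genes these rules take in are not reported here. Other scalings, pseudocounts, filters, array weights and left-out libraries were tried. Coordinates are from a GENCODE annotation of GRCm38, and promoters from RefSeq.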

Additional observations from a re-analysis of the deposited data

Results flagged for a closer look

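WT_TAM replicate 4 lay far from the other 3 WT_TAM libraries in the summed level of the ribosomal protein genes: its gap to the nearest library was 0.972 of the whole range of the group, past Dixon's critical value for a group of 4. The same ratio was 0.971 for the small subunit, 0.971 for the large subunit and 0.954 for the paralogs. It was past the limit in 21 of the 28 named members. The share past the limit over all tested genes is not given, so whether this count is particular to the members cannot be told. Other genes of up to 600 bases also stood high in WT_TAM replicate 4, at a median of 2.27 times the other WT_TAM libraries (380 genes). KO_TAM replicate 3 stood apart from the other KO_TAM libraries in Rps27rt, with a ratio of 0.954, and a value of 12.4 CPM against 5.48 to 5.79. Chance gives such a result in about 1 in 20 groups, and these genes are not independent of each other.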

How the results depend on the processing

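In the genotype comparison, 0 members were called in either direction under every alternative run. The median log2 difference was -0.33 with array weights and -0.16 with the length trend removed and without WT_TAM replicate 4 and KO_TAM replicate 2, and -1.06 to -0.44 with 1 library left out at a time. The ratio of summed levels was 0.427 to 0.750 with 1 left out, and 0.836 without both. Between sites, the members called higher (1 with all libraries) numbered 3 with array weights, 0 by library total alone, 0 by reads outside the members and the mitochondrial genome, 3 with the replicate block, 3 without WT_TAM replicate 4 and with the length trend removed, and 0 to 3 with 1 library left out. Those called lower (1) numbered 69, 23, 17, 68 and 65 under the same settings, 14 with the length trend removed, and 1 to 72 with 1 library left out. Of all tested genes, 23.1 percent were called higher and 23.6 percent lower with all libraries, and 32.2 and 33.5 percent without WT_TAM replicate 4. The shares under the other settings are not given, so those counts have no background to be read against. Between sites the replicate block leaves out WT_TAM replicate 4, which has no partner; in the genotype comparison it called 0 members, with a median of -0.87. Same-numbered libraries share only a number: correlations of their deviations ran from -0.16 to 0.20, and 1 pair in each comparison correlated best with its own number. The length trend alternatives were chosen after seeing the data. The causes were not tested. No called member changed direction, and the call of Rps27l was lost in 4 settings. The library totals, and the few libraries in each group, limit the precision, and counting intervals cover counting error only.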

Other observations

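Pseudogenes of the family, marked -ps, were counted apart from the members. Their summed level was 128, 157, 164 and 459 CPM in WT_TAM and 103, 72.5, 131 and 121 CPM in KO_TAM, over 223 names of the genotype table. In the site table, 221 names gave 327, 341 and 344 CPM in WT_SP. WT_TAM replicate 4 was again the highest and KO_TAM replicate 2 the lowest tumor library.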
